A study of Mus musculus with 144 samples.

Results

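The wells described here were 9 wells of single retinal microglia, sorted 2 days after optic nerve crush, that held messenger RNA of Stmn1, out of 144 wells in the series. They were set against 10 day 2 wells without it. The rule that chose them used Stmn1 itself. A day 2 well was kept when it had at least 50000 reads, recovered from the deposited values, and was dropped when the neutrophil genes S100a8 and S100a9 both reached 1000 reads per 1000000 (RPM). Of 36 day 2 wells, 25 had that depth, 6 of these were dropped, and the 19 kept wells were divided at 50 RPM of Stmn1. Day 4 wells and uncrushed wells were kept and divided by the same limits, which gave 11 wells with and 11 without Stmn1 at day 4, and 1 with and 37 without among 38 wells of uncrushed retina.

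The animals of every group, uncrushed ones included, were C57BL/6 mice aged 20 to 22 months that carried the Iba1-EGFP transgene, in which a promoter active in microglia and in other macrophages drives a green fluorescent protein. Cells were sorted by flow cytometry, 1 to a well, on 3 plates of 48 wells, and complementary DNA was amplified in each well. By title, 36 wells were from day 2 after crush, 54 from day 4 and 54 from retina with no crush. No label names an animal. A group is therefore 1 sample, wells are cells and not replicates, and no test is given: values come with their range over wells, values within plates, and exact Clopper-Pearson 95% intervals that cover counting error only. All 18 day 4 wells of plate 1 carry a treatment tag of day 2. They were grouped by their titles. Some day 4 values are also given without that plate, and all others include it.

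Stathmin, the protein of Stmn1, binds tubulin dimers and promotes the shrinking of microtubules, and it is switched off by phosphorylation as cells enter mitosis so that a spindle can form. Dividing cells of many kinds express it, and neurons do too. Microglia are long-lived macrophages of nervous tissue that seldom divide at rest and can proliferate after nerve injury. A cell that divides first licenses and copies its DNA, which calls on the MCM helicase, the PCNA clamp and enzymes of nucleotide supply, and then makes the cyclins, kinases and kinetochore proteins of mitosis.

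The Stmn1 levels that chose the wells are given as a description. In the 9 wells with it, Stmn1 lay between 244 and 4695 RPM, with a median of 1139 RPM. Among the 10 wells without it, 7 were at 0 and the highest was at 12.1 RPM. The wells just inside and just outside the limit were therefore at 244 and 12.1 RPM, and limits of 20 or 100 RPM chose the same wells. The level rested on 192 to 12056 reads in wells with Stmn1 and on at most 3 reads in wells without. The gene (ENSMUSG00000028832) lies on the plus strand of GRCm38 chromosome 4, from 134468320 to 134473843.

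A processed pseudogene, Gm11223, followed Stmn1 from well to well. It had 78.5 to 1161 RPM in the 9 wells with Stmn1 and 0 to 8.09 RPM in the 10 wells without. Its 450-base transcript was 99.8% identical to a Stmn1 transcript of 1060 bases over its whole length in the GENCODE vM21 sequences. Reads of the pair may have been divided between them by the authors' counting, so the absolute level of either is uncertain.

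Wells with Stmn1 made up 9 of 19 kept wells at day 2, or 47.4% (24.4 to 71.1). The counts were 5 of 8 on plate 1, 2 of 4 on plate 2 and 2 of 7 on plate 3. At day 4 the share was 11 of 22, or 50% (28.2 to 71.8), with 5 of 10, 6 of 10 and 0 of 2 on the plates, the last of which allows a share of up to 84.2%. In uncrushed retina it was 1 of 38, or 2.63% (0.0666 to 13.8), a well of plate 2 at 607 RPM. These shares describe 1 sample each, and their difference was not tested.

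**Figure D1:**
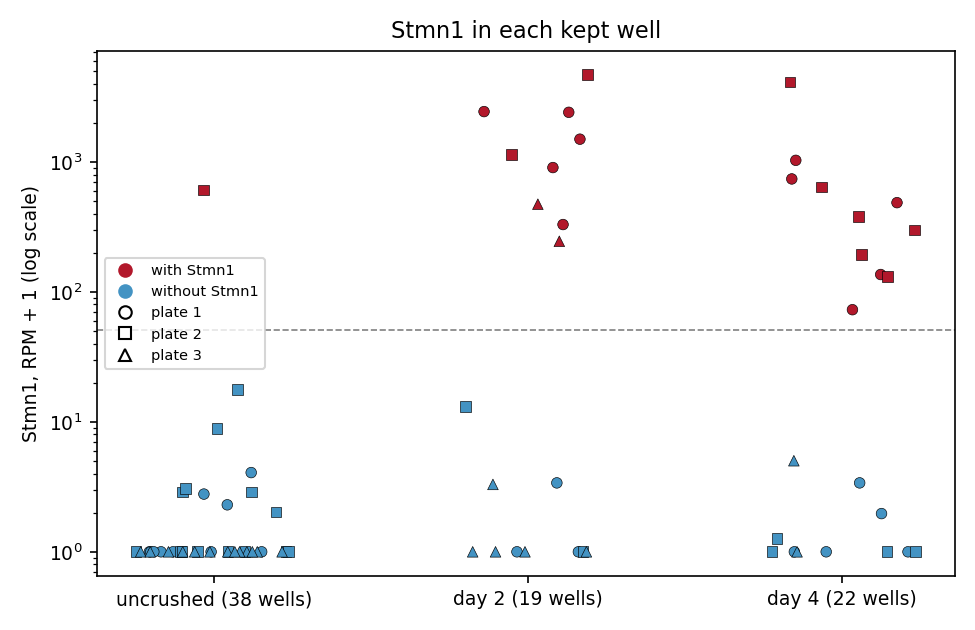
Stmn1 in each kept well of uncrushed retina, day 2 and day 4, as RPM + 1 on a log scale. Each point is a well, its shape gives the plate and its colour the side of the dashed limit at 50 RPM. The 9 day 2 wells with Stmn1 lie at 244 to 4695 RPM, the 10 without at 12.1 RPM or below, and 1 of 38 uncrushed wells lies above the limit.

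Depth and cell identity bear on everything that follows. The 9 wells with Stmn1 had 261281 to 8065036 reads (median 798129) and the 10 wells without had 94800 to 1045629 (median 654849). Wells with Stmn1 held more genes: 2419 to 9207 with any read, median 5650, against 2085 to 6508, median 3226.5. After each well was thinned to 50000 reads the medians were 2840 and 1291 genes. A larger number of genes in a well can raise many per-gene averages together, and its part in the results was not tested. Of 3631 genes with at least 50 RPM in 3 or more of the 19 wells, called measured below, 77.6% were higher in wells with Stmn1, and the median difference of mean log2(RPM + 10) over all of them was 0.79. Within plates 1, 2 and 3 that median was 0.52, 0.08 and 1.41. In a linear model with the log2 number of genes per well as a covariate it was -0.00, and such values are called adjusted.

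Microglia markers were present on both sides. Of 11 markers, wells with Stmn1 held 7 to 11 at 50 RPM or more and wells without held 6 to 11, with summed levels of 14884 to 59235 RPM and 2358 to 92212 RPM. At 500 RPM, 2 wells without Stmn1 stood apart, well E1 of plate 2 and well E2 of plate 3, with 4 and 1 of the 11 markers. Defining markers of other cell types were mostly absent. All 5 neutrophil precursor genes in the table and all 6 erythroid genes were at 0 in the 19 wells, as were 10 of 11 T and NK cell genes, among them Cd3e and Nkg7, and 6 of 14 monocyte and macrophage genes, among them Cd163 and Lyve1. Of 10 neutrophil markers, 3 or more reached 10 reads in 3 of 9 wells with Stmn1 and 0 of 10 without, with Csf3r among them in each well. Their sums over the list were at most 826 RPM in wells with Stmn1 and 425 RPM in wells without, and Camp, Ngp and Ltf were at 0. Of 13 rod genes, the sums were at most 1780 RPM in wells with Stmn1 and 28.6 RPM in wells without, of 12 ganglion cell and neuron genes 122 and 1669 RPM, and of the 14 monocyte and macrophage genes 859 and 357 RPM. Of 7 cone genes, Pde6h was found in 9 of 9 and 6 of 10 wells and Gngt2 in 8 of 9 and 7 of 10, while Gnat2 and Pde6c were at 0, with list sums of 301 to 1221 RPM and up to 2689 RPM. Of 6 B cell genes, Ighm was found in 5 of 9 and 3 of 10 wells, while Cd79a, Ms4a1 and Igkc were at 0, with sums of up to 649 and 3527 RPM. Of 10 Mueller glia and astrocyte genes, Glul was found in 5 of 9 and 3 of 10 wells, while Gfap, Sox9, Clu and Dkk3 were at 0. Slc1a3 was found in 2 of 9 and 0 of 10 wells, Rlbp1 in 1 of 9 and 0 of 10, and Apoe in 0 of 9 and 2 of 10. At least 3 of these genes reached 10 reads in 1 of 9 and 0 of 10 wells, and their sums were up to 727 and 2496 RPM. The part of these cells' RNA in the results was not tested. Without the 3 wells with neutrophil markers, the other 6 wells with Stmn1 held 2 to 43 mitosis genes, a measure described next. Mueller glia and astrocyte genes were not used to leave out wells there.

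Genes of mitosis were found mainly in the wells with Stmn1. The number of genes at 50 RPM or more was counted in each well out of all genes of a list, with no filter. Of 59 mitosis genes, the 9 wells with Stmn1 held 1 to 43, median 9, and the 10 wells without held 0 to 5, median 0. Every well with Stmn1 held at least 1, against 4 of 10 without, and 7 of 9 held at least 3, against 1 of 10. Counted by gene, 50 of the 59 reached 50 RPM in some well with Stmn1, against 7 in some well without. Well D4 of plate 1, the deepest at 8065036 reads, held 43 of these by itself, and the next highest well held 19. The counts by gene therefore rest largely on that well and were not repeated without it. Of the 51 found in some well, 44 (86.3%) were found in wells with Stmn1 alone, 1 (1.96%) in wells without alone and 6 in both. Of the 8705 genes of the whole table found at that level in some day 2 well, 36.7% were found in wells with Stmn1 alone, 17.9% in wells without alone and 45.4% in both.

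The genes best known as marks of division were found in the wells with Stmn1 at high levels and in few of them. Mki67, which encodes the Ki-67 antigen that coats mitotic chromosomes, was at 4037, 325, 239 and 121 RPM in 4 of 9 wells with Stmn1 and at 0 in all 10 wells without. Top2a, the topoisomerase that untangles sister chromatids, was at 3709, 649 and 348 RPM in 3 wells with Stmn1 and at 24.3 RPM or below in the wells without. Cdc20, an activator of the anaphase-promoting complex, was at 1543, 974 and 358 RPM in 3 wells with Stmn1 and at 1.20 RPM or below in the wells without. Each of these values rested on at least 84.5 reads. The 3 genes did not mark the same wells: well D3 of plate 1 held Mki67 and Cdc20 without Top2a at that limit, and well E5 of plate 1 held Top2a alone.

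The promoters of these 3 genes are shown because they are the best known marks of division here, each found in wells with Stmn1 alone, and because CCAAT and TTTGAA, the second a form of the cell cycle homology region, are textbook elements of late cell cycle promoters. Each line gives the 200 bases before the RefSeq start, on the strand of the gene, in GRCm38.p6, and capitals mark both motifs, read on either strand. Mki67 lies at chr7:135716380-135716579, Cdc20 at chr4:118437344-118437543 and Top2a at chr11:99024190-99024389, all on the minus strand.
Mki67: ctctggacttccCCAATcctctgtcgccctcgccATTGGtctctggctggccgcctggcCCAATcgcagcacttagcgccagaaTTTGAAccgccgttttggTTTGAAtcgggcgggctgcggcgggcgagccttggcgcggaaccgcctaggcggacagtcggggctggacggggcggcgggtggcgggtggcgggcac
Cdc20: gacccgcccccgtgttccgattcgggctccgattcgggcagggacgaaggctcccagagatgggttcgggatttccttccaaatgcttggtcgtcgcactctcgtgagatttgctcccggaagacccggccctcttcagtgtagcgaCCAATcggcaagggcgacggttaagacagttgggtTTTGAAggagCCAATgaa
Top2a: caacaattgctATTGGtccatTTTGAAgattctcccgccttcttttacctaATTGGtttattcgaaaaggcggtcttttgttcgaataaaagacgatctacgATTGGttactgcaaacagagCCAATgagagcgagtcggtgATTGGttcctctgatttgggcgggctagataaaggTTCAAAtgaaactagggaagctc
Within 250 bases before the start, CCAAT was present in 37 of 49 mitosis genes with a RefSeq promoter (75.5%), 21 of 35 replication genes (60%) and 34.5% of 27025 genes. TTTGAA was present in 15 (30.6%), 4 (11.4%) and 16.3%, and both motifs in 14 (28.6%), 3 (8.57%) and 5.73%. Each motif was scored on its own on both strands, whether or not it overlapped the other. A match is a match of letters and says nothing of binding.

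Single kinetochore, spindle and checkpoint genes were mostly found in wells with Stmn1 alone. Spc25, a subunit of the NDC80 complex that ties chromosomes to the spindle, reached 168 to 1449 RPM in 5 of 9 wells with Stmn1 and was at 0 in the 10 wells without. Racgap1, which directs the cleavage furrow, reached 314 to 5083 RPM in 4 wells with Stmn1 and at most 1.91 RPM in wells without. Spc24, the partner of Spc25, and Cdca3, a trigger of mitotic entry, were each found in 4 of 9 and 0 of 10 wells. Incenp, Cdca8 and Aurkb, members of the chromosomal passenger complex, were found in 3 of 9 and 0 of 10 wells each. The condensin gene Smc2 was found in 3 of 9 and 0 of 10. Bub3, a checkpoint gene, was found most widely, in 6 of 9 and 1 of 10 wells. Pttg1, which encodes securin, went the other way, with 1 of 9 and 2 of 10 wells.

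Of the 59 mitosis genes 18 were measured, and 17 of these were higher in wells with Stmn1. Of the 18, 12 reached 50 RPM in no well without Stmn1 and so passed only through the wells with it, where they had to be high. Their count and median, 1.89 on the log2 scale and 1.56 adjusted, are therefore a description of the genes that passed and not of the list. With no filter, the 54 mitosis genes with a read in any day 2 well had a median difference of 1.13, beside 0.04 for the 17071 genes of the table with a read. Within plates 1, 2 and 3 the measured genes had medians of 2.44, 2.50 and 0.88, beside 0.52, 0.08 and 1.41 for all genes, so on plate 3 the mitosis genes lay below the shift of all genes.

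Genes of DNA replication differed less between the sides. Of 43 genes of licensing, origin firing and the fork, wells with Stmn1 held 1 to 17 at 50 RPM, median 7, and wells without held 0 to 18, median 1.5. By gene, 28 reached 50 RPM in some well with Stmn1 and 20 in some well without. Of the 33 found in some well, 13 (39.4%) were in wells with Stmn1 alone and 5 (15.2%) in wells without alone, near the 36.7% and 17.9% of all genes. The MCM helicase gene Mcm3 was found in 4 of 9 wells with Stmn1 and 3 of 10 without, and the polymerase clamp gene Pcna in 4 of 9 and 2 of 10. Rfc2, a subunit of the clamp loader, was found in 7 of 9 and 6 of 10 wells, at medians of 230 and 510 RPM. Mcm6 and Pold2, a subunit of DNA polymerase delta, were found in wells with Stmn1 alone, in 3 and 4 of 9. The 14 measured replication genes had a median difference of 1.28, or 0.52 adjusted, and with no filter the 39 with a read had 0.61.

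A single well accounted for most replication genes without Stmn1. Well D6 of plate 1 held 18 replication genes and 5 mitosis genes at 2.39 RPM of Stmn1, and the other 9 wells without Stmn1 held 0 to 2 replication genes and 0 or 1 mitosis genes. In that well Pcna, Rfc2, Mcm3 and the cyclin gene Ccna2 were all present. Stmn1 and the replication genes were therefore not always found together at day 2.

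**Figure D2:**
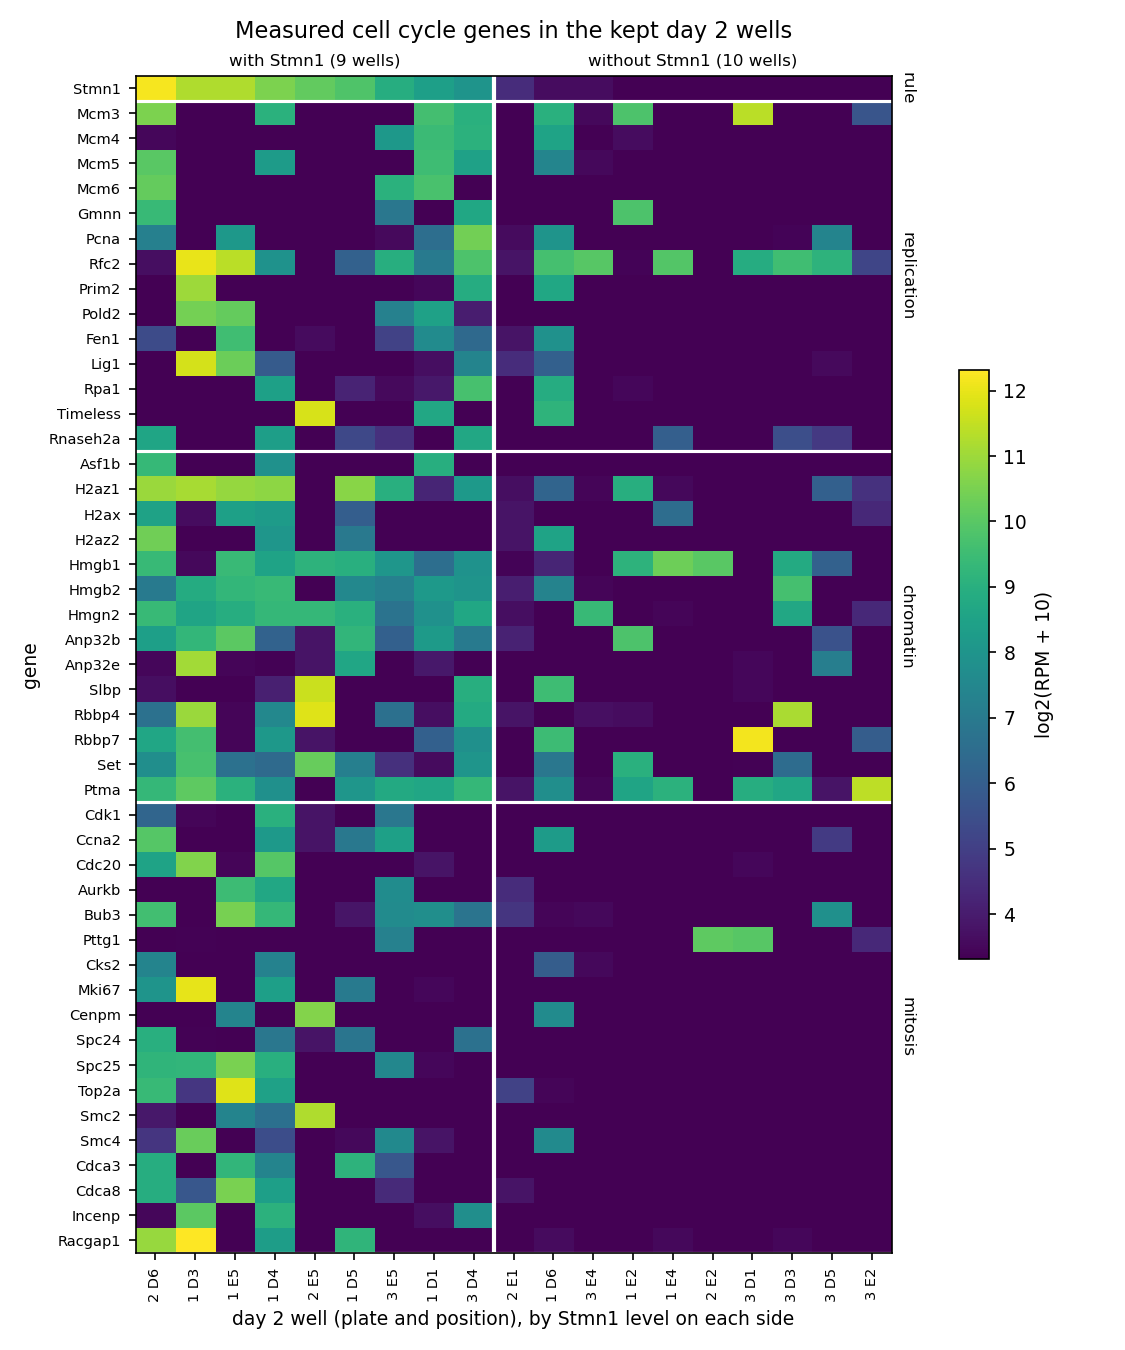
Stmn1 and the 46 measured genes of replication, chromatin and mitosis (rows) in the 9 day 2 wells with Stmn1, left, and the 10 without, right, as log2(RPM + 10). Columns are wells, ordered by Stmn1 on each side. Of all 59 mitosis genes, the 4 wells with the most Stmn1 hold 9 to 43 at 50 RPM. The next wells, 2 E5 and 1 D5, hold 2 and 10. Of the wells without, 1 D6 holds most of the replication genes.

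The measured chromatin genes were higher in wells with Stmn1, with a median above 0 on every plate. For nucleotide supply genes the share that was higher was near that of all measured genes. Of 19 nucleotide supply genes 9 were measured, 7 higher and 2 lower, beside 77.6% higher of all measured genes. Their median was 1.81, or 0.32 adjusted, and -0.13, 0.40 and 2.20 within plates 1, 2 and 3. All measured genes had 0.79, or -0.00 adjusted, and 0.52, 0.08 and 1.41 within the plates. Rrm1, the large subunit of ribonucleotide reductase, was found in 6 of 9 wells with Stmn1 and 2 of 10 without, and Dut, which removes dUTP, in 5 of 9 and 1 of 10. Hmgn2, a nucleosome-binding protein gene, was found in all 9 wells with Stmn1, at 98.0 to 660 RPM with a median of 479, against 2 of 10 wells without. Hmgb2, a DNA-bending protein gene raised in dividing cells, was found in 8 of 9 and 2 of 10 wells, at medians of 241 and 0.106 RPM. H2az1, which encodes the histone variant H2A.Z, was found in 7 of 9 and 3 of 10, at medians of 1671 and 2.12 RPM. Anp32b, a histone chaperone gene, was found in 8 of 9 and 1 of 10. All 14 measured of 22 chromatin genes were higher in wells with Stmn1, beside 77.6% of all measured genes. Their median was 1.77, or 1.58 adjusted, and 1.79, 2.95 and 2.10 within plates 1, 2 and 3. These values describe the genes that passed the filter and not the list.

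Of 18 genes of G1 cyclins, kinases and E2F, which act before replication, 5 were measured. Their median was 0.76, or 0.32 adjusted, beside 0.79 and -0.00 for all measured genes. Cdk4 had the largest difference of the 5, at 3.99. It lies on the plus strand of chromosome 10 from 127063534 to 127067920 and encodes the kinase that cyclin D uses to start the cycle. It was at 0.960 to 953 RPM, median 306, in wells with Stmn1 and at 0 to 12.1 RPM in wells without. It passed 50 RPM in 7 of 9 and 0 of 10 wells, and so was measured only through wells with Stmn1. Its partner Ccnd1 did not follow it, with 3 of 9 and 3 of 10 wells. At day 4 the difference of Cdk4 was 1.49, and -0.02 without plate 1. Of 15 cell cycle inhibitor genes 4 were measured, among them Cdkn1a, the p21 gene, in 2 of 9 and 1 of 10 wells, and Btg2, an antiproliferative gene, in 3 of 9 and 4 of 10.

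Over all 6 lists of cell cycle genes, 143 in number, wells with Stmn1 held 12 to 71 genes at 50 RPM, median 29, and wells without held 0 to 39, median 5.5. As a share of all genes at that level in the same well, the medians were 1.49% and 0.545% and the highest values 2.84% and 1.56%, and the ranges overlapped. Of the 143 genes 55 were measured. Of these 52 were higher in wells with Stmn1, beside 77.6% of all measured genes, and 22 passed a 4-fold difference, beside 12.5% (453). Among the 55, 12 mitosis and 2 replication genes reached 50 RPM in no well without Stmn1. They passed only through the wells with it, so these counts describe the genes that passed and not the lists. Wells of similar gene number could be compared only on a few: with 5000 genes or more, the 7 wells with Stmn1 held 1 to 43 mitosis genes, median 10, and the 2 wells without held 5 and 1. Replication genes there were 1 to 17, median 8, in wells with Stmn1 and 18 and 2 in wells without.

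**Figure D3:**
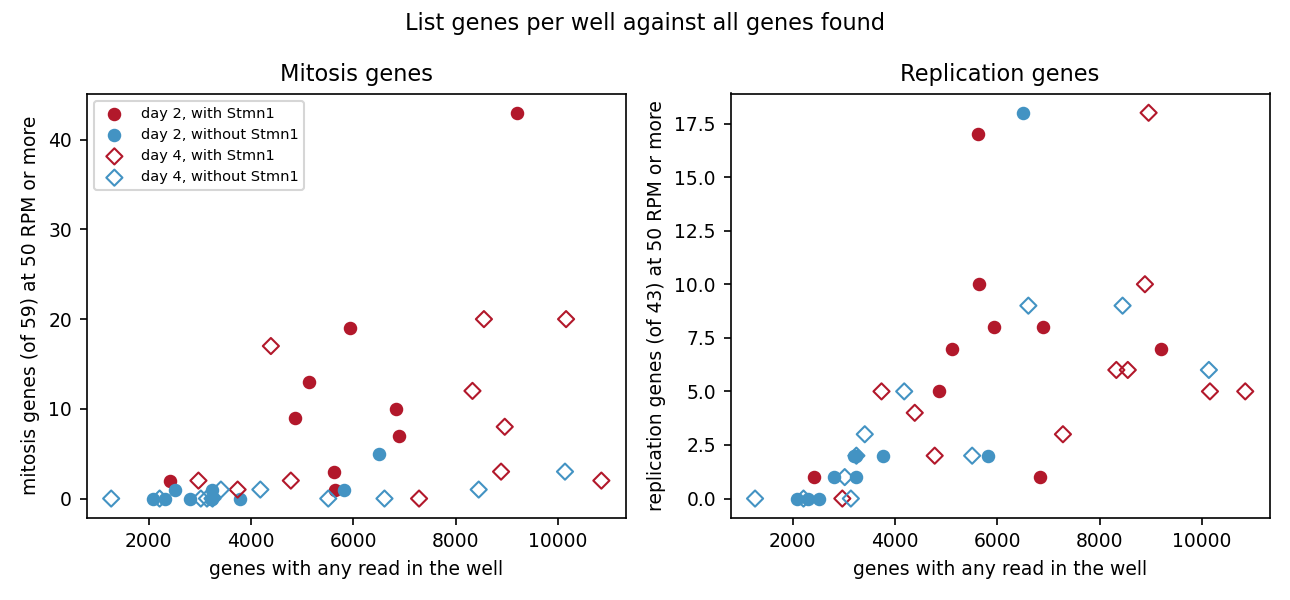
Mitosis genes (left, of 59) and replication genes (right, of 43) at 50 RPM or more in each well, against the number of genes with any read. Filled circles are day 2 wells and open diamonds day 4 wells, red with and blue without Stmn1. Among wells with 5000 genes or more, wells without Stmn1 hold 5 mitosis genes at most, while several of them hold as many replication genes as the wells with Stmn1.

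Among the wells with Stmn1, the rule used no order of level, and the amount of Stmn1 could be set beside other genes. The 4 wells with the most Stmn1, at 4695, 2438, 2407 and 1495 RPM, held 19, 13, 9 and 43 mitosis genes with summed levels of 11538, 20807, 10149 and 20079 RPM. The wells between, at 1139 and 904 RPM, held 2 and 10 mitosis genes, summing to 4072 and 6017 RPM. The 3 wells with the least, at 472, 329 and 244 RPM, held 7, 1 and 3 mitosis genes, summing to 1403, 227 and 398 RPM. The same 3 wells held 8, 10 and 17 replication genes, the wells between held 1 each, and the 4 highest held 8, 7, 5 and 7. Wells low in Stmn1 were thus not low in replication genes.

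As a rank correlation over the 9 wells, Stmn1 and the summed mitosis genes had a Spearman rho of 0.88, or 0.89 in the 7 wells left without the 2 farthest from the median of Stmn1. For replication genes rho was 0.27 and -0.18, and for the chromatin genes of S phase it was 0.80 and 0.75. The list of mitotic kinases, cyclins and checkpoint genes alone had 0.67 and 0.50. The number of genes per well had a rho of -0.13 with Stmn1, and reads had 0.55. Over 23 pathway lists rho ran from -0.73, for genes of microglia proliferation signals such as Csf1r, to 0.87, for the kinetochore, spindle and condensin list, with a median of 0.05. Wells share no library, but all levels in a well share its total. In the 11 day 4 wells with Stmn1, which the day 2 rule did not use, rho was 0.89 for mitosis and 0.05 for replication genes, but 0.88 for oxidative phosphorylation as well. For the number of mitosis genes at 50 RPM in place of their sum, rho was 0.72 at day 2 and 0.27 at day 4. There the number of genes per well had a rho of -0.64 with Stmn1. Without plate 1 the day 4 rho for mitosis genes was 0.83 over 6 wells.

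**Figure D4:**
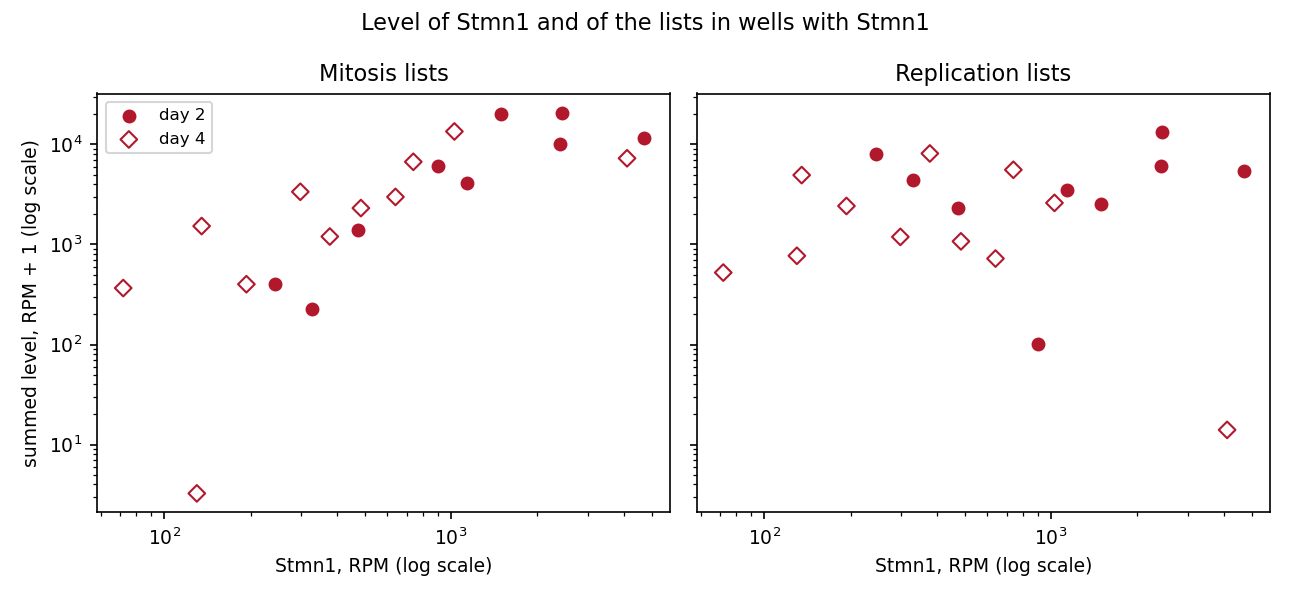
Summed level of mitosis genes (left) and replication genes (right), as RPM + 1, against Stmn1 in RPM, both on log scales, in the 9 day 2 (filled) and 11 day 4 (open) wells with Stmn1. Mitosis sums are at 227 to 1403 RPM in the 3 day 2 wells lowest in Stmn1 and at 10149 to 20807 RPM in the 4 highest, with no such order for replication.

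The tubulin genes, whose products stathmin binds, were the next group. Tubb5, a beta tubulin gene expressed in dividing cells and neurons, lies on the minus strand of chromosome 17 from 35833921 to 35838306 and had, after Stmn1 itself, the largest difference of the genes named by the rule, 5.15 on the log2 scale. It was at 14.4 to 3389 RPM, median 878, in wells with Stmn1 and at 0 to 215 RPM, median 3.33, in wells without, and passed 50 RPM in 8 of 9 and 1 of 10. Over the 19 wells it was the gene most like Stmn1, with a Spearman rho of 0.87. Those wells were divided by Stmn1 itself, so that rho largely repeats the division. Inside the 9 wells with Stmn1, the summed tubulin list had a rho of 0.53 with Stmn1. It was 0.07 without the 2 wells farthest from the median of Stmn1. At day 4 the difference of Tubb5 was -0.78, with 5 of 11 wells with Stmn1 and 7 of 11 without, and -2.01 without plate 1. The alpha tubulin genes Tuba1b and Tuba1c were found in all 9 wells with Stmn1 and 7 of 10 without, at medians of 808 and 335 RPM against 249.4 and 171 RPM. The alpha tubulin genes are near-identical copies, so their counts are uncertain. Tacc3, a spindle microtubule protein gene, was found in 4 of 9 and 0 of 10 wells at day 2 and in 5 of 11 and 0 of 11 at day 4.

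Among all measured genes, 453 (12.5%) were past 4-fold higher in wells with Stmn1 and 6 (0.165%) past 4-fold lower. Adjusted for genes per well, 224 (6.17%) were higher and 181 (4.98%) lower, so the directions were nearly balanced in that fit. The 6 lower genes were Anxa5, Rtp4, Lsm6, Naxe, Tmem106a and Ap1s1, named after their values were seen, and the number was 10 without well E1 of plate 2. Annexin A5, the protein of Anxa5, binds phosphatidylserine, and the gene was at 0 to 1725 RPM, median 0.768, in wells with Stmn1 and at 0 to 31107 RPM, median 117, in wells without. Rtp4, an interferon-stimulated gene, was found in 2 of 9 and 5 of 10 wells.

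The 15 highest named genes, with differences of 3.85 to 5.15, were mostly outside the cell cycle. They were Tubb5, Zfp706, Gatm, Sdhd, Bin2, H2az1, Clic1, Arpc2, H3f3b, Hmgn2, Atp5g1, Brk1, Cdk4, Sh3glb1 and Eif3l. Arpc2 and Brk1 encode subunits of the actin-nucleating Arp2/3 and WAVE complexes, Sdhd and Atp5g1 subunits of succinate dehydrogenase and ATP synthase, Gatm the enzyme that starts creatine synthesis, and Eif3l a translation initiation factor subunit. Arpc2 was at 95.9 to 1839 RPM, median 1147, in the 9 wells with Stmn1 and at 1.19 to 1030 RPM, median 18.6, in the 10 wells without. Atp5g1 passed 50 RPM in 8 of 9 and 0 of 10 wells, and Eif3l in 6 of 9 and 0 of 10. After adjustment 14 of the 15 were past 4-fold higher, at 2.01 to 5.20, and H3f3b was at 1.26. The 15 were chosen by their differences in these same wells, so the adjusted values are no separate support. At day 4, which shares no well with day 2, 11 of the 15 were above 0 and 4 were past 4-fold higher, beside 84.1% and 8.68% of all measured genes: Gatm, H2az1, Arpc2 and Sh3glb1.

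Only 12 genes met the same rule on the lower side, at -2.36 to -0.44. They included Naxe, an epimerase gene at 0 RPM in the median well with Stmn1 and 115 RPM in the median well without, and abundant genes of microglia with overlapping ranges. Cst3, which encodes the protease inhibitor cystatin C, was at 6717 to 57388 RPM, median 19904, in wells with Stmn1 and 12933 to 86454 RPM, median 32327, in wells without. Tyrobp, the adaptor of Trem2, had medians of 2704 and 3643 RPM, and Ftl1, the ferritin light chain, 2091 and 3779 RPM. The others were Napa, Gas5, Olfr77, Rn7s1, Septin2, Rn7s2, Eef1g and Selenok. At day 4, 11 of the 12 were above 0, near the 84.1% of all measured genes.

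The genes most like Stmn1 after Tubb5 were Tpm4 at a rho of 0.85, Mien1 at 0.84, Cox7a2 at 0.82, Dynlt1a at 0.80, and Cdk4, Banf1, Nelfe, Hist1h2ap and Hist1h2ao at 0.79, over 19 wells. The last pair had the same values and may share reads. Since the 19 wells were divided by Stmn1, each rho largely repeats the division and is no separate support. At day 4, 9 of these 10 were above 0 and 1 was past 4-fold higher, near the 84.1% and 8.68% of all measured genes.

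Genes of energy and protein production had higher medians on the log scale with Stmn1, but the summed levels of several of these lists differed little. Sums were higher with Stmn1 for splicing and RNA export, at medians of 6205 and 1172 RPM, and for the proteasome, at 4636 and 2701 RPM. The other sums had medians of 7361 RPM in wells with Stmn1 and 6368 RPM in wells without for oxidative phosphorylation. They were 4436 and 4161 RPM for glycolysis, 9398 and 9393 RPM for chaperones, and 8989 and 11346 RPM for translation factors. The cell cycle genes summed to medians of 26283 and 3690 RPM. Counts by gene are read against the 77.6% of all measured genes that were higher and the 12.5% past 4-fold. All 22 oxidative phosphorylation genes on the list were measured, 21 were higher in wells with Stmn1, and 9 were past 4-fold higher (median 1.86, 0.74 adjusted). Ndufa4, a respiratory chain gene, was found in 8 of 9 and 1 of 10 wells. Of 16 glycolysis genes 10 were measured and 9 of these were higher (median 1.98, 0.93 adjusted), with Ldha, lactate dehydrogenase, at medians of 1329 and 15.9 RPM. Splicing and RNA export had a median of 1.72 (21 of 22 measured, 17 higher, 0.35 adjusted), chaperones 1.38 (19 of 20, 16 higher, 0.33 adjusted), translation factors 1.13 (21 of 23, 17 higher, 0.47 adjusted) and the proteasome 1.03 (19 of 20, 14 higher, -0.03 adjusted). Each of these medians lay above that of all genes, 0.79, before adjustment, and the proteasome median did not lie above it (-0.00) after.

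Genes of resting and of damage-associated microglia were close to the shift of all genes by their medians on the log scale, but not by their summed levels. Of 18 homeostatic genes 17 were measured and 13 were higher in wells with Stmn1 (median 0.87), beside 77.6% of all measured genes, but the adjusted median was -0.86, and it was -0.07, 0.00 and 2.02 within plates 1, 2 and 3. The purinergic receptor gene P2ry12 was found in 8 of 9 and 6 of 10 wells, at medians of 1036 and 392 RPM. Csf1r, the receptor of the growth factor CSF1, was found in 6 of 9 and 7 of 10, at medians of 1666 and 3377 RPM, and its ligand gene Csf1 passed 50 RPM in no kept day 2 well. Of 20 damage-associated genes 14 were measured and 9 were higher (median 0.60, adjusted -0.17). Their summed level ran the other way, at 18929 to 38658 RPM, median 27327, in wells with Stmn1 and 32161 to 67581 RPM, median 53265, in wells without. The homeostatic genes summed to medians of 48320 and 56072 RPM, with ranges that overlapped widely. Of the damage-associated genes, Lpl, lipoprotein lipase, was found in 4 of 9 and 1 of 10 wells and Cd63, a tetraspanin gene, in 6 of 9 and 7 of 10. Interferon response genes had a median of 0.66 (15 of 22 measured, 11 higher, -0.86 adjusted).

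**Figure D5:**
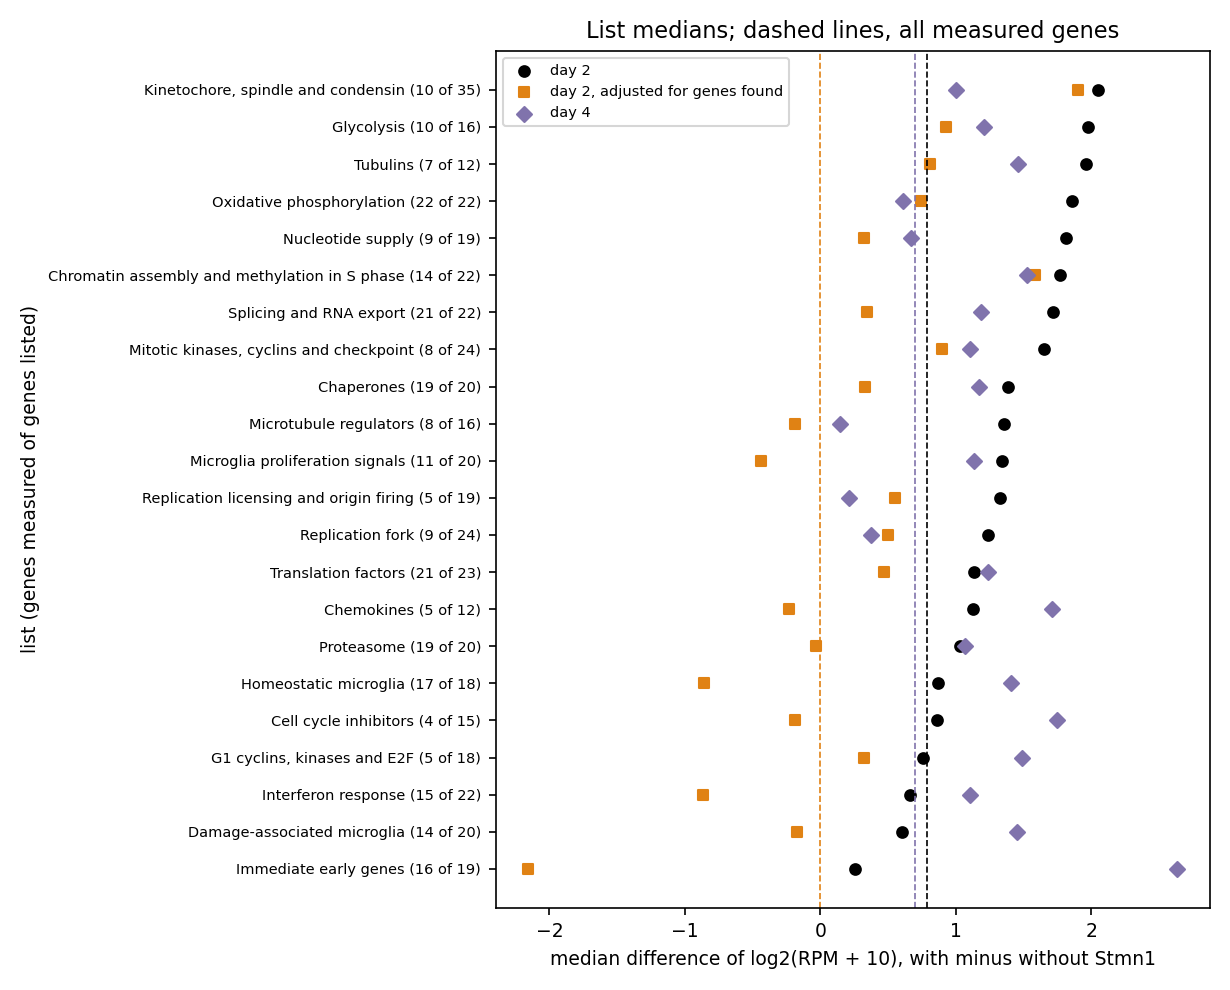
Median difference of log2(RPM + 10), wells with minus without Stmn1, for 22 lists with at least 3 measured genes. Circles are day 2, squares day 2 adjusted for genes found per well and diamonds day 4, and dashed lines mark the median of all measured genes for each (0.79, -0.00 and 0.70). After adjustment the kinetochore list (10 of 35 genes measured) lies at 1.90 and the chromatin list (14 of 22) at 1.58. Only 3 of the 35 kinetochore genes reached 50 RPM in a well without Stmn1, so most of the 10 passed only through wells with it. These medians describe the genes that passed and not the lists. Immediate early genes lie at 0.26 at day 2, -2.16 adjusted and 2.63 at day 4.

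Day 4 gave the same comparison in other wells. The 11 wells with Stmn1 held 0 to 20 mitosis genes at 50 RPM, median 3, and the 11 without held 0 to 3, median 0. Replication genes were at 0 to 18, median 5, with Stmn1 and at 0 to 9, median 2, without. In uncrushed retina wells held 0 to 2 mitosis genes, median 0. Without plate 1 the mitosis counts were 0 to 20, median 2.5, in 6 wells with Stmn1 and 0 to 3, median 0.5, in 6 wells without. The replication counts there were 0 to 10, median 5, and 0 to 9, median 4. On all plates, wells with Stmn1 again held more genes, a median of 8329 against 3411, and 7919 against 3796.5 without plate 1. Among wells with 5000 genes or more, 7 with Stmn1 held 0 to 20 mitosis genes, median 8, and 4 without held 0 to 3, median 0.5.

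Single mitosis genes were not the same at both times. Birc5, which encodes survivin of the chromosomal passenger complex, was found in 6 of 11 wells with Stmn1 and 0 of 11 without at day 4, and in 2 of 9 and 0 of 10 at day 2. Cdc20 was found in 4 of 11 and 0 of 11 wells at day 4, and Mki67 in 3 of 11 and 0 of 11. Spc25, found in 5 of 9 wells with Stmn1 at day 2, was found in 0 of 11 at day 4. H2az1 was found in 10 of 11 wells with Stmn1 and 2 of 11 without at day 4, with a difference of 4.18, or 3.62 without plate 1.

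Across all measured genes, 315 (8.68%) were past 4-fold higher with Stmn1 at day 4 and 0 past 4-fold lower, and without plate 1 the counts were 413 and 19. Adjusted for genes per well, 2.4% were past 4-fold higher, 1.24% past 4-fold lower and 55.9% above 0. Of the 453 genes past 4-fold higher at day 2, 75 were also past it at day 4, which is 16.6% of the 453 and 23.8% of the 315. Of the 453, 86.8% were above 0 at day 4, beside 84.1% of all measured genes. Without plate 1, 88 of the 453 were past 4-fold higher at day 4, beside 11.4% of all measured genes. There 76.8% of the 453 were above 0, beside 76.9% of all measured genes. The immediate early genes, which respond quickly to stimulation, had a median of 0.26 at day 2 and 2.63 at day 4 (16 of 19 measured). Adjusted for genes per well, the medians were -2.16 at day 2, the lowest of the plotted lists, and 1.34 at day 4. Fos was found in 8 of 11 wells with Stmn1 and 2 of 11 without at day 4, and in 5 of 9 and 3 of 10 at day 2. The difference between the days was not tested.

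Both sides were also set against the 38 kept uncrushed wells, which the 2 comparisons share. The measured genes were chosen in day 2 wells alone, so genes that reached 50 RPM only in uncrushed wells could not be counted as lower. Genes with any read had medians of 5650 in wells with Stmn1, 3226.5 in wells without and 3048 in uncrushed wells. The part of either in these counts was not tested. In day 2 wells with Stmn1, 508 genes (14%) were past 4-fold higher than in uncrushed wells and 0 lower, and 91.6% were above 0, with a median of 1.01 over all genes. In day 2 wells without Stmn1, 47 (1.29%) were past 4-fold higher and 8 (0.22%) lower, and 63.9% were above 0, with a median of 0.20. For the measured mitosis genes no such pair of medians is read, since 12 of the 18 passed only through wells with Stmn1. Interferon response genes had medians of 1.14 with Stmn1 and 0.88 without.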

How the data were processed

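Single sorted cells were lysed in wells, and complementary DNA was amplified and tagmented with Nextera XT, per the labels' protocols. The deposited values are FPKM for 55364 genes. The submitters' processing notes name STAR 2.7.2b as a tool, featureCounts 1.6.1, the trimmers Trimmomatic 0.36, cutadapt 1.16 and Trim Galore 0.4.4, and the build GRCm38.p6, with no settings.

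FPKM times gene length in kilobases summed to 1000000 in every well and was used as RPM. The most frequent value above 0 was taken as 1 read, and 40.9% of recovered values under 100 reads were whole within 0.01. Without molecular identifiers, reads are not independent molecules.

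Differences are of mean log2(RPM + 10) over wells, which understates changes of low genes. Genes were measured at 50 RPM in 3 wells or more. Called means past 4-fold. No animal is named, so no test or p-value is given. Doublets were not called.

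The genes named are the 15 highest and 15 lowest measured genes found in at least 50% of the wells of 1 side with the same sign on each plate, the 10 most like Stmn1 among 2783 genes, list members and, per list, up to 4 of largest difference. Unnamed models and ribosomal protein genes were left out. Members and lists were chosen with earlier results of these data known. The scripts were tested on simulated data. Sequences are from RefSeq (GRCm38.p6) and GENCODE vM21, with one promoter a gene. Values were computed with pandas 2.3.3, scipy 1.17.1 and numpy 2.4.6 under Python 3.11.15 and plotted with matplotlib 3.10.9.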

Additional observations from a re-analysis of the deposited data

Results flagged for a closer look

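Well-level measures were looked at for values far from the rest of their side, in 16 groups of 9 or 10 wells, where chance alone flags about 1 group in 20. Among wells with Stmn1, well D4 of plate 1 had 8065036 reads, the next highest having 2602967, and 43 mitosis genes at 50 RPM, the next highest having 19. Without it the difference of the median number of mitosis genes was 8. Among wells without Stmn1, well D6 of plate 1 held 39 cell cycle genes, the next highest holding 9, with 18 replication genes against 2 and 5 mitosis genes against 1.

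Outside the wells compared, 1 of the 6 day 2 wells dropped for S100a8 and S100a9, well E1 of plate 1, held Stmn1 at 147 RPM.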

How the results depend on the processing

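Main values were 453 genes past 4-fold higher, 6 lower, and a cell cycle median of 1.74. Outside wells left out in turn, the count of higher genes moved past 1.5 times with pseudocounts of 1 (1305) and 50 (63), with log2(FPKM + 1) (949) and with adjustment for genes found (224). The count of lower genes was 31, 0, 17 and 181 under these, 10 with median of ratios size factors over 260 genes, 18 with no well dropped for S100a8 and S100a9, 24 without plate 1, and 42 without plate 3. The cell cycle median was 2.83 with a pseudocount of 1, 0.99 with 50, 0.95 with no filter and 2.89 without plate 1. Size factors moved the all-gene median to 0.69. Chosen after seeing the data, wells with 5000 genes or more (7 with, 2 without Stmn1) gave 435 lower genes, and dropping 2 wells with few microglia markers gave 18. Leaving out each well gave 412 to 585 higher genes, 4 to 10 lower, a cell cycle median of 1.5 to 1.98, a share with Stmn1 of 44.4% to 50%, a difference of 2406.5 to 2568 genes found and of 8 to 9.5 mitosis genes. That last difference, 9 in all wells, was 5 without plate 1. The causes were not tested. The planned scaling outside mitochondrial genes was not run, since such genes are not analysed here. No paired analysis was possible because the labels pair no wells across the sides. Well number, with 9 and 10 wells and 1 sample a group, limits all values.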

Other observations

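Single genes of other lists are given for wells with and without Stmn1 at day 2, as a description. The lists' medians were 1.12 for chemokines, 0.28 for cytokines, 1.03 for the proteasome and 1.38 for chaperones, beside 0.79 for all measured genes. Adjusted, they were -0.23, -1.99, -0.03 and 0.33, beside -0.00. Of 12 chemokine genes 5 were measured, 4 higher and 1 lower. Of 9 cytokine genes only 2 were measured, 1 higher and 1 lower, so the cytokine medians rest on 2 genes. Among chemokine genes, Ccl9 was found in 5 of 9 wells with Stmn1 and 1 of 10 without, and Ccl12, a monocyte chemoattractant gene, in 7 of 9 and 7 of 10, at medians of 1687 and 210 RPM. The cytokine gene Tnf was found in 1 of 9 and 2 of 10 wells, and at day 4 in 8 of 11 and 1 of 11. Psmc4, a proteasome ATPase gene, was found in 6 of 9 and 0 of 10 wells, and at day 4 in 9 of 11 and 4 of 11. Hsp90aa1, a heat shock protein gene, was found in 7 of 9 and 1 of 10 wells, and Ranbp1, a cofactor of nuclear transport, in 6 of 9 and 2 of 10. The translation elongation factor gene Eef2 was found in all 9 wells with Stmn1, at a median of 801 RPM, and in 6 of 10 without, at 72.5 RPM.

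The single uncrushed well with Stmn1 had 607 RPM of it over 3418 genes and held 0 mitosis and 0 replication genes at 50 RPM, with 10 of 11 microglia markers.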
